A study of Mus musculus with 16 samples.

Results

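Subchondral bone of sham-operated mouse knees was compared between 6 weeks and 1 week after surgery, using the 4 arrays labelled sham at 6 weeks and the 4 labelled sham at 1 week, 8 of the 16 arrays of the series. All animals were male wild type C57BL6 mice aged 10 to 12 weeks at surgery, operated on both knees. In the sham group the joint capsule was opened on the medial side, the fat pad was lifted, the medial menisco-tibial ligament was inspected but left whole, and the joint was rinsed with saline and closed. In the other group, destabilization of the medial meniscus (DMM, a surgical model of osteoarthritis), the same steps were followed by cutting that ligament. Each array holds RNA of 1 joint of 1 mouse: bone beneath the medial tibial cartilage, cut by laser from 10 µm frozen sections after decalcification. The labels do not name unoperated mice, so time since surgery and the age of the mice cannot be told apart. The comparison asks how bone under a joint that was opened but not destabilized differs between an early and a later stage.

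Subchondral bone is the plate and trabeculae that carry the articular cartilage, and the marrow between them. Osteoclasts, formed from myeloid precursors under the cytokine RANKL, resorb the matrix, osteoblasts lay it down again, and osteocytes enclosed in it regulate both. The marrow of mice is rich in erythroid precursors, B cell precursors and granulocytes, and it also holds fat cells, macrophages, vessels and nerves.

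At 6 weeks, genes of bone resorption, bone matrix, fibrous matrix and matrix proteolysis read lower on average than at 1 week, and genes of red cell precursors, B cells, cartilage and fat cells read higher. The members of these groups lay mostly on 1 side: all 25 erythroid genes measured and 24 of 25 B cell genes were higher, and 14 of 16 osteoclast genes and 32 of 39 fibrous matrix genes were lower. The gelatinase gene Mmp9 and the histone demethylase gene Kdm6b were among the highest ranked single genes on the lower side. On the higher side these included the antitrypsin gene Serpina1e and the cytochrome P450 genes Cyp2e1 and Cyp2f2. Gm6252 ranked before Kdm6b, and Spata31d1b before Cyp2f2. No gene passed the threshold of the test: 0 of 28250 genes had a limma adjusted p under 0.05 (0%), and the lowest adjusted p was 0.189. The sections that follow therefore describe levels and differences between these 8 mice.

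Levels are log2 of the background-corrected spot signal minus the array's 75th percentile, so that 0 is the 75th percentile of all probes on that array and 1 unit is a doubling of signal. Differences are 6 weeks minus 1 week, given with their standard error from a limma fit over all 16 arrays with the slide as a block. Replicates 1 and 2 of each group were on 1 slide and replicates 3 and 4 on the other; the replicate numbers follow the order of the records and pair no mice. At an unadjusted p under 0.05, 1254 genes (4.44%) were higher and 1143 (4.05%) lower at 6 weeks, together 8.48% of the genes tested. For 616 genes (2.18%) all 4 values at 6 weeks lay above all 4 at 1 week, and for 890 genes (3.15%) all lay below, together 5.33%. Over all genes, 55.2% of the differences were above 0. The median difference over all genes was 0.04, and the median standard error was 0.27.

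Over the 16 arrays the 75th percentile of signal ran from 329 to 873, and the share of probes well above background from 65.3% to 79.6%. The dimmest array was replicate 2 of the 6-week sham group, at 329 against 471 for the next, and it also lay far from all others on the first principal component, which held 39.8% of the variance. Results are therefore given with and without it. Without it the adjusted count stayed at 0 (lowest adjusted p 0.160, limma), and 2050 genes (7.26%) were higher and 1371 (4.85%) lower at an unadjusted p under 0.05. Of these, 1527 were among the genes with an unadjusted p under 0.05 and the same sign on all arrays. Defining genes of bone (Bglap, Col1a1, Sost, Dmp1), osteoclasts (Acp5, Ctsk) and marrow (Hba-a1, Elane) were above background on 16 of 16 arrays, and so were those of cartilage (Acan, Col2a1, Prg4), fat (Adipoq), muscle (Acta1) and Schwann cells (Sox10). In whole tissue of this kind, fewer cells of a type and less RNA per cell cannot be told apart.

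**Figure D1:**
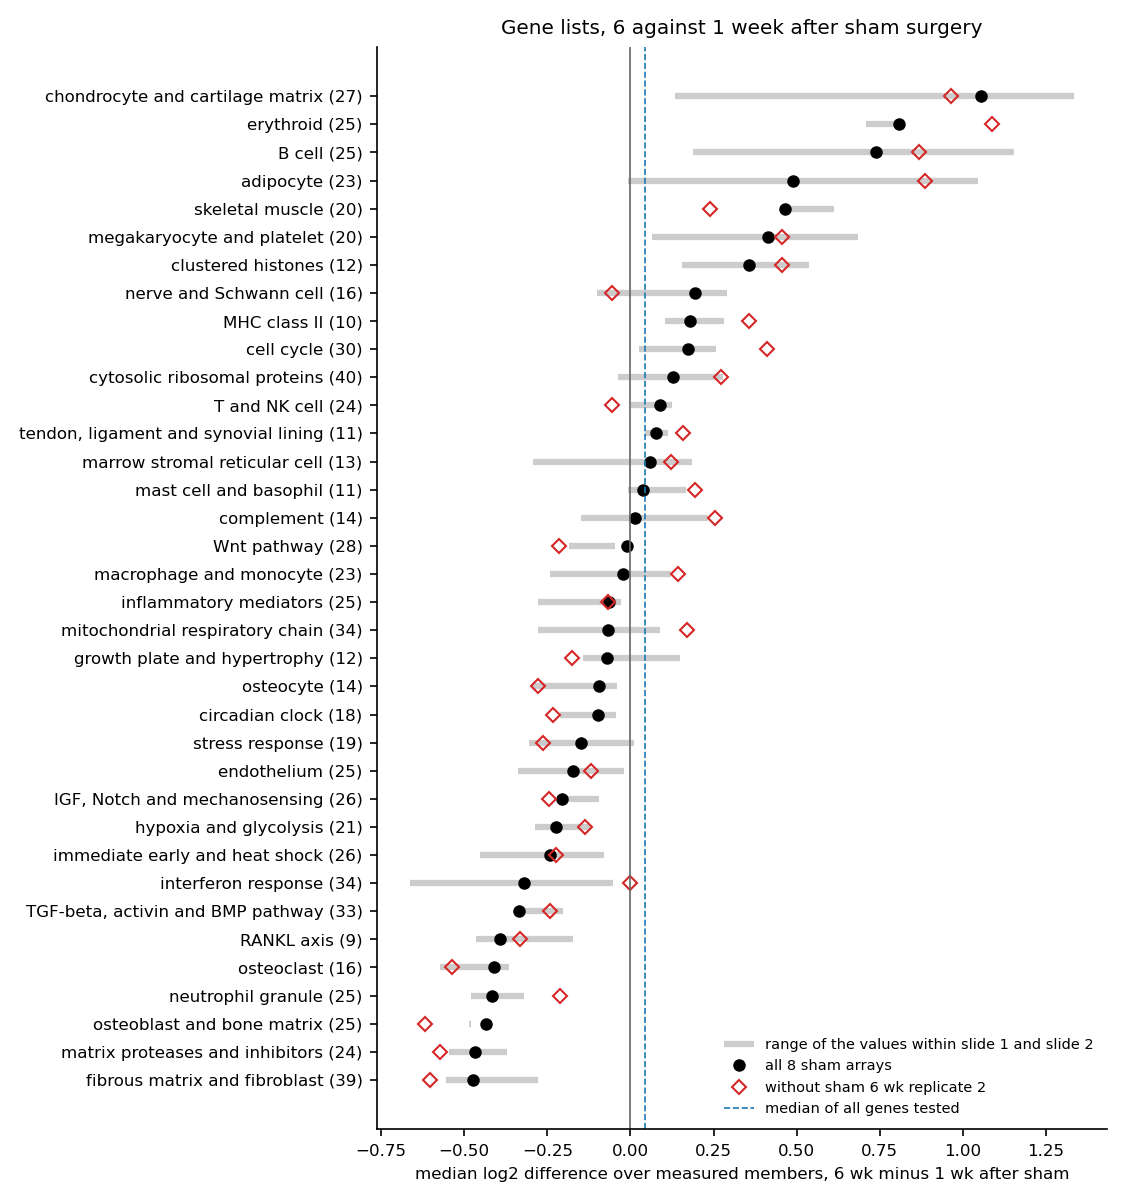
Median log2 difference (horizontal axis, 6 weeks minus 1 week after sham) of the measured members of each gene list (vertical axis). Black points use all 8 sham arrays, red diamonds leave out the dimmest array, grey bars run between the values within the 2 slides, and the dashed line is the median of all genes (0.04). The chondrocyte, erythroid and B cell medians lie farthest to the right on all arrays (1.05, 0.81 and 0.74), and the fibrous matrix and protease medians (-0.47 each) lie farthest to the left.

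Genes of bone resorption were lower at 6 weeks. Of 16 osteoclast genes, 14 were lower and 2 higher, with a median difference of -0.41 (-0.54 without the dimmest array). At an unadjusted p under 0.05, 4 were lower and none higher, and 2 were lower without overlap between the groups (all genes: 4.05% and 3.15%). Mmp9 encodes a secreted gelatinase that osteoclasts and neutrophils both make, and it stands in both lists. At 1 week it read 4.45, 5.00, 4.87 and 4.65, and at 6 weeks 3.56, 3.91, 3.81 and 3.93. Every 6-week value lay below every 1-week value, a difference of -0.94 ± 0.17 (1.92-fold lower; limma adjusted p = 0.189). The difference was -0.99 within the first slide and -0.89 within the second, and a further probe of the gene gave -0.85. The probe behind these values is printed here because Mmp9 ranked first of the lower genes. Its 60 bases span 1210 bases of genome (mm9, chr2:164779091-164780300, plus strand, as the array file gives it), so that they cross from one aligned block to another:
Mmp9 probe: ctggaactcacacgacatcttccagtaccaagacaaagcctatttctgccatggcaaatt

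Other resorption genes differed in the same direction with more spread. Calcr, the calcitonin receptor of mature osteoclasts, read -2.54, -1.93, -2.07 and -2.47 at 1 week and -4.25, -2.50, -4.32 and -2.96 at 6 weeks. The groups overlapped narrowly, through replicate 2 of the 6-week group, and the difference was -1.26 ± 0.45 (-1.61 without that array). Dcstamp, needed for the fusion of osteoclast precursors, differed by -1.08 ± 0.48 with overlapping groups. Nfatc1, the master transcription factor of the lineage, differed by -0.47 ± 0.18. The resorption enzymes themselves had wide spread: Ctsk (cathepsin K) differed by -0.83 ± 0.43 and Acp5 (tartrate-resistant acid phosphatase) by -0.51 ± 0.28, each with overlapping groups and limma adjusted p-values of 0.637 and 0.662. Car2, the carbonic anhydrase that supplies acid for resorption, was the member farthest on the other side, at 0.65.

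Of the 9 genes of the RANKL axis, 7 were lower, with a median of -0.39. The gene of the receptor RANK, Tnfrsf11a, differed by -0.79 ± 0.39 and its groups did not overlap. Tnfsf11, which encodes RANKL, read -2.60, -2.62, -2.70 and -2.51 at 1 week and -3.48, -3.51, -3.23 and -2.58 at 6 weeks. Replicate 4 of the 6-week group lay among the 1-week values, and the difference was -0.59 ± 0.40. Sema4d, a semaphorin by which osteoclasts restrain osteoblasts, had the smallest unadjusted p of the axis, with a difference of -0.46 ± 0.14 and no overlap between the groups.

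Bone-forming genes were lower as a group, though the most abundant matrix genes were not separated. Of 25 osteoblast and bone matrix genes, 21 were lower, with a median of -0.44, and 3 were lower at an unadjusted p under 0.05 (all genes: 4.05%). Without the dimmest array the median was -0.62 and 11 were lower at that level (all genes: 4.85%). Alpl, the alkaline phosphatase that frees phosphate for mineral, read 3.13, 3.69, 2.38 and 3.61 at 1 week and 2.09, 2.52, 1.42 and 2.38 at 6 weeks. Both groups spread over more than 1 unit and overlapped, and the difference was -1.10 ± 0.44. A further Alpl probe gave only -0.12. Pth1r, the receptor for parathyroid hormone, read 3.25 to 3.49 at 1 week and 2.27 to 3.23 at 6 weeks, with no overlap (-0.75 ± 0.34). Spp1, the matrix protein osteopontin, differed by -0.56 ± 0.25 with overlapping groups.

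The defining bone genes differed less than their error. Bglap (osteocalcin) read 0.46 ± 0.47 higher and Col1a1 (the main chain of type I collagen) differed by -0.44 ± 0.47. Among 14 osteocyte genes 8 were lower, with a median of -0.09 (-0.28 without the dimmest array). Fgf23, the phosphate-lowering hormone, read 2.92 to 4.10 at 1 week and 3.21, 1.70, 2.45 and 2.58 at 6 weeks. Its lowest value came from the dimmest array, the groups overlapped, and the difference was -0.97 ± 0.34 (-0.61 without that array). Slc8a3, a sodium-calcium exchanger, differed by -0.88 ± 0.33 on its main probe and by 0.06 on its other probe. The mineralization protein gene Dmp1 differed by -0.14 ± 0.37. Sost, the osteocyte inhibitor of bone formation, was 0.48 ± 0.55 higher, with -0.41 within the first slide and 1.36 within the second.

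**Figure D2:**
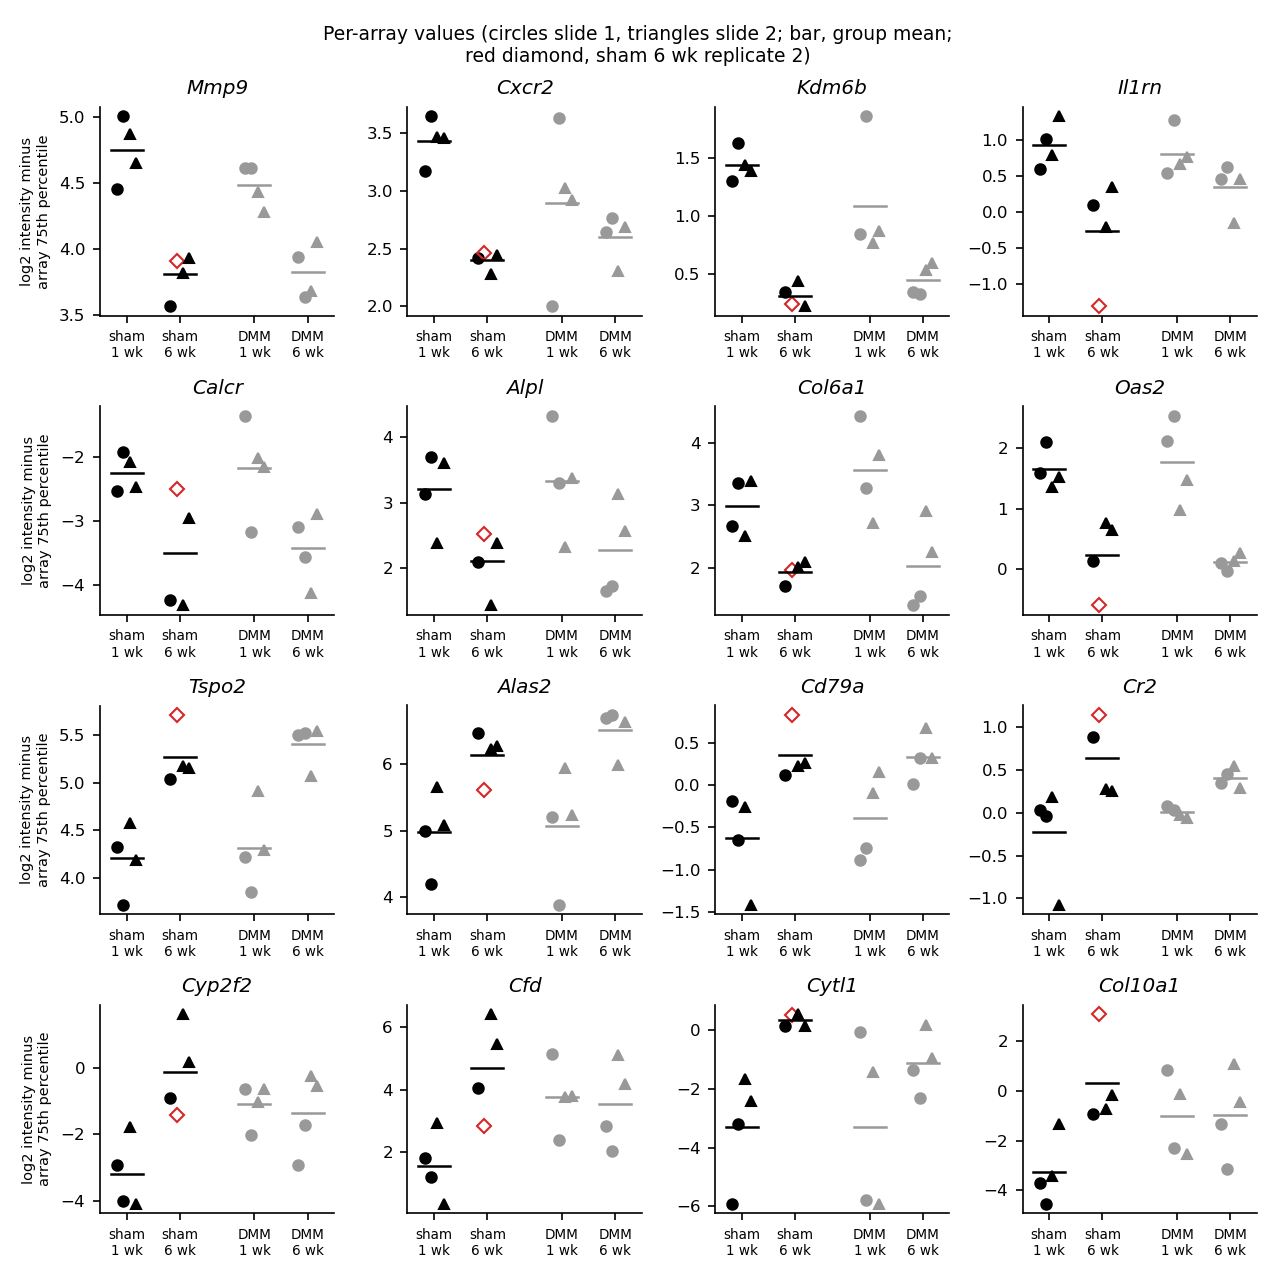
Levels of 16 genes in each mouse (vertical axes, log2 signal relative to the array's 75th percentile; horizontal positions, 1 and 6 weeks after sham, with DMM in grey for comparison). Circles are arrays of the first slide and triangles those of the second, and the red diamond is the dimmest array. For Mmp9, Cxcr2, Kdm6b, Il1rn, Col6a1 and Oas2 the sham values at 6 weeks all lie below those at 1 week. For Tspo2, Cd79a, Cr2, Cyp2f2, Cytl1 and Col10a1 they all lie above.

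Fibrous matrix genes were lower at 6 weeks. Of 39 measured, 32 were lower and 7 higher, with a median of -0.47, and 36 were lower without the dimmest array. At an unadjusted p under 0.05, 8 were lower (all genes: 4.05%) and 0 higher. Col6a1, a chain of the microfibrillar collagen VI that surrounds cells, read 2.67, 3.36, 2.51 and 3.39 at 1 week and 1.70, 1.96, 2.01 and 2.09 at 6 weeks. All 6-week values lay below, and the difference was -1.04 ± 0.38. Its partner chain gene Col6a2 differed by -0.94 ± 0.39, Col12a1 (a fibril-associated collagen) by -1.15 ± 0.46 and the proteoglycan gene Lum by -1.09 ± 0.44, all with overlapping groups. The widest range in the list was from -1.78 for Tnn, a tenascin of the periosteum, to 0.36 for Col8a2.

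Matrix proteases and their inhibitors showed a like balance: 21 of 24 were lower, with a median of -0.47. Timp1, the secreted inhibitor of metalloproteinases, read 3.49, 3.90, 3.21 and 3.68 at 1 week and 1.71, 3.42, 2.24 and 2.83 at 6 weeks. The dimmest array alone among the 6-week samples reached the 1-week range, and the difference was -1.02 ± 0.32 (-1.34 without it). The aggrecanase gene Adamts4 differed by -0.89 ± 0.36, with overlap. Plaur, the receptor of urokinase, differed by -0.78 ± 0.29 without overlap (-0.50 without the dimmest array). Serpine2 (protease nexin 1) differed by -0.52 ± 0.21, also without overlap, and by -0.23 on its other probe. Of the 3 members that were higher, Timp3 and Timp4, inhibitors as well, did not overlap between the groups. Timp3 was 0.29 ± 0.19 higher, and Ctsb (cathepsin B) stood at 0.0070. Timp4 read -2.36, -2.77, -2.32 and -3.16 at 1 week and -1.94, -1.15, -1.60 and -2.26 at 6 weeks, 0.91 ± 0.30 higher with no overlap.

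Kdm6b, an enzyme that removes the repressive H3K27 methyl mark and is known to be induced in activated macrophages, read 1.31, 1.63, 1.44 and 1.39 at 1 week and 0.34, 0.24, 0.44 and 0.22 at 6 weeks. Within each group the values spanned less than the gap between groups, and the difference was -1.13 ± 0.21 (2.19-fold lower; limma adjusted p = 0.201). Its other probe gave -0.88, and the 2 slides gave -1.18 and -1.08. The main probe, shown because its 4 values in each group lay close together, lies on the minus strand of mm9 at chr11:69213554-69213698, where 60 bases span 145:
Kdm6b probe: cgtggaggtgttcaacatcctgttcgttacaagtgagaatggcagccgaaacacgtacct

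Pla2g7, the secreted hydrolase that inactivates platelet-activating factor, differed by -0.86 ± 0.17, and its 2 other probes by -0.89 and -0.68. Cd300ld, a surface receptor of myeloid cells, differed by -0.91 ± 0.22 and Cd101, an immunoglobulin-family surface protein, by -0.80 ± 0.19. C5ar1, the receptor of the complement fragment C5a, read 1.51, 2.12, 1.58 and 1.97 at 1 week and 0.98, 0.79, 0.74 and 0.73 at 6 weeks, a difference of -0.99 ± 0.28 with no overlap. Of the 14 complement genes, C5ar1 included, 7 were higher and 7 lower, with a median of 0.01, and without the dimmest array 10 were higher and 4 lower, with a median of 0.25. C3ar1, the receptor of the fragment C3a, was 0.45 ± 0.20 higher.

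Of 25 neutrophil genes, 23 were lower, with a median of -0.42 (-0.21 without the dimmest array) and 3 lower at an unadjusted p under 0.05 (all genes: 4.05%). Cxcr2, the chemokine receptor that draws neutrophils out of marrow, read 3.17, 3.65, 3.47 and 3.46 at 1 week and 2.42, 2.46, 2.28 and 2.45 at 6 weeks. The groups were far apart, at -1.03 ± 0.26. Padi4, the enzyme that citrullinates histones in neutrophil traps, differed by -0.82 ± 0.31 with overlap (-0.57 without the dimmest array). Genes of early granules differed by -0.18 ± 0.24 (Mpo, myeloperoxidase) and -0.32 ± 0.28 (Elane, neutrophil elastase), both with overlapping groups. The mature marker Ly6g differed by -0.57 ± 0.37, also with overlap (-0.21 without the dimmest array).

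Inflammatory mediators had no common direction, with 15 of 25 lower and a median of -0.07. Il1rn, the natural antagonist of interleukin-1, read 0.59, 1.01, 0.79 and 1.33 at 1 week and 0.09, -1.31, -0.21 and 0.35 at 6 weeks. All 6-week values lay below, the dimmest array lowest, and the difference was -1.20 ± 0.32 (-0.84 without it). Il1b, the cytokine itself, differed by -0.94 ± 0.33 with overlapping groups. Cxcl5, a chemokine for neutrophils, went the other way, 0.92 ± 0.29 higher without overlap. Macrophage genes divided into 9 higher and 14 lower, with a median of -0.02, and without the dimmest array into 15 and 8, with a median of 0.14. T and NK cell genes divided into 13 higher and 11 lower, with a median of 0.09, and without it into 10 and 14, with a median of -0.06. The balance of both lists thus turned with that array.

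Genes of the response to type I interferon were lower over all arrays, but not alike in all mice. Of 34 measured, 30 were lower, with a median of -0.32, and 5 were lower at an unadjusted p under 0.05, all 5 without overlap between the groups (all genes: 4.05% and 3.15%). The median was -0.66 within the first slide and -0.05 within the second. Without the dimmest array 17 were lower and 17 higher. That array had a median deviation of the list, each gene taken from its mean over the 8 sham arrays, of -1.15, against -0.01 to 0.30 in the other 3 arrays at 6 weeks and 0.05 to 0.20 at 1 week.

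The oligoadenylate synthetase family, which senses double-stranded RNA, held the lowest member, Oas2. It read 1.59, 2.11, 1.36 and 1.53 at 1 week and 0.14, -0.60, 0.76 and 0.65 at 6 weeks, a difference of -1.41 ± 0.34 (-1.09 without the dimmest array), and its other probe gave -1.57. Oasl2 differed by -1.04 ± 0.25 and Oas1a by -1.19 ± 0.32, and without the dimmest array by -0.77 and -0.79. Bst2 (tetherin), which holds budding virions at the cell surface, differed by -0.40 ± 0.15. In these 4 genes every 6-week value, with or without that array, was below every 1-week value.

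Promoters of these genes are known for a short element read by the interferon-activated complex ISGF3. The letters GAAA, any 2 bases and again GAAA were searched on both strands of RefSeq promoters (GRCm38.p6, 250 bases before to 50 after the start). Of the 34 measured members, 25 had a promoter in the table and 15 of these held the letters, against 3.99% of 27025 genes and 3.44% of 32851 promoters. Over all arrays the median difference was -0.36 for the 15 members that held the letters and -0.21 for the other 10 members. This split was not computed without the dimmest array, where the median of the whole list was -0.0023. A link between the letters and the difference was not tested. Windows of Oas1a (chr5:120907526-120907555, minus strand, match from -20) and Bst2 (chr8:71537583-71537612, minus strand, match from -130) show the element in 2 of the separated genes. In each window a further match overlaps this one, from the last GAAA of the capitals into the small letters. Capitals mark only the match whose position is given:
Oas1a promoter: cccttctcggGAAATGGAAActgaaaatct
Bst2 promoter: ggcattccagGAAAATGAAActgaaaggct

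Genes of red cell precursors all lay on 1 side. All 25 erythroid genes were higher at 6 weeks, from 0.24 for Hba-a1 to 1.16 for Alas2, with a median of 0.81, and all 25 were higher within both slides. At an unadjusted p under 0.05, 11 were higher (all genes: 4.44%). In 1 gene, Tspo2, the groups did not overlap (all genes: 2.18% higher without overlap). Without the dimmest array the median was 1.09 and 23 were higher at that level (all genes: 7.26%), but Hba-a1 stood at -0.04. The list's median deviation was 0.72, 0.78 and 0.81 in 3 arrays at 6 weeks and -0.48 in the dimmest array, against -1.12 to 0.20 at 1 week.

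Tspo2, a cholesterol-binding protein of erythroblasts, read 4.33, 3.72, 4.58 and 4.19 at 1 week and 5.04, 5.71, 5.18 and 5.15 at 6 weeks, 1.07 ± 0.25 higher. Its highest value came from the dimmest array, unlike the list's median, and without that array Tspo2 was 0.88 higher. Alas2, the first enzyme of erythroid haem synthesis, read 5.00, 4.20, 5.67 and 5.09 at 1 week and 6.47, 5.62, 6.24 and 6.28 at 6 weeks. Replicate 3 at 1 week and the dimmest array at 6 weeks met, and the difference was 1.16 ± 0.37. Fech, the last enzyme of the same pathway, was 1.05 ± 0.30 higher and Ank1 (ankyrin of the red cell membrane) 0.92 ± 0.32 higher, both with overlap. The globin genes, whose RNA also remains in finished red cells, differed less: Hba-a1 by 0.24 ± 0.26 and Hbb-bt by 0.27 ± 0.22. All 20 megakaryocyte and platelet genes were likewise higher, with a median of 0.41 (0.68 and 0.07 within the slides), but 0 reached an unadjusted p under 0.05 (all genes: 4.44%). Within both slides 13 of the 20 were higher. Without the dimmest array 17 were higher and 3 lower, with a median of 0.46. The platelet receptor gene Gp9 was 0.58 ± 0.31 higher.

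Of 25 B cell genes 24 were higher, with a median of 0.74, 12 at an unadjusted p under 0.05 and 5 without overlap between the groups (all genes: 4.44% and 2.18%). The slides differed, with medians of 0.19 and 1.15. Cd79a, a signalling chain of the B cell receptor, read -0.18, -0.64, -0.26 and -1.42 at 1 week and 0.12, 0.83, 0.23 and 0.26 at 6 weeks. All 6-week values lay above, and the difference was 0.99 ± 0.30. Cr2, the complement receptor of mature B cells, was 0.86 ± 0.24 higher without overlap and by 0.96 and 1.27 on its other probes. Spib and Pax5, transcription factors of the lineage, were 0.77 ± 0.24 and 0.60 ± 0.24 higher with overlap.

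Replicate 4 of the 1-week group was the lowest for the B cell list, with a median deviation of -1.07 against -0.19 to -0.02 in the other 3 arrays at 1 week. The 6-week arrays stood at 0.42, -0.25, 0.36 and 0.74, the dimmest again lowest. Of 10 MHC class II genes 8 were higher, with a median of 0.18, and H2-Ob, a chain of the B cell regulator of peptide loading, was 0.78 ± 0.26 higher.

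**Figure D3:**
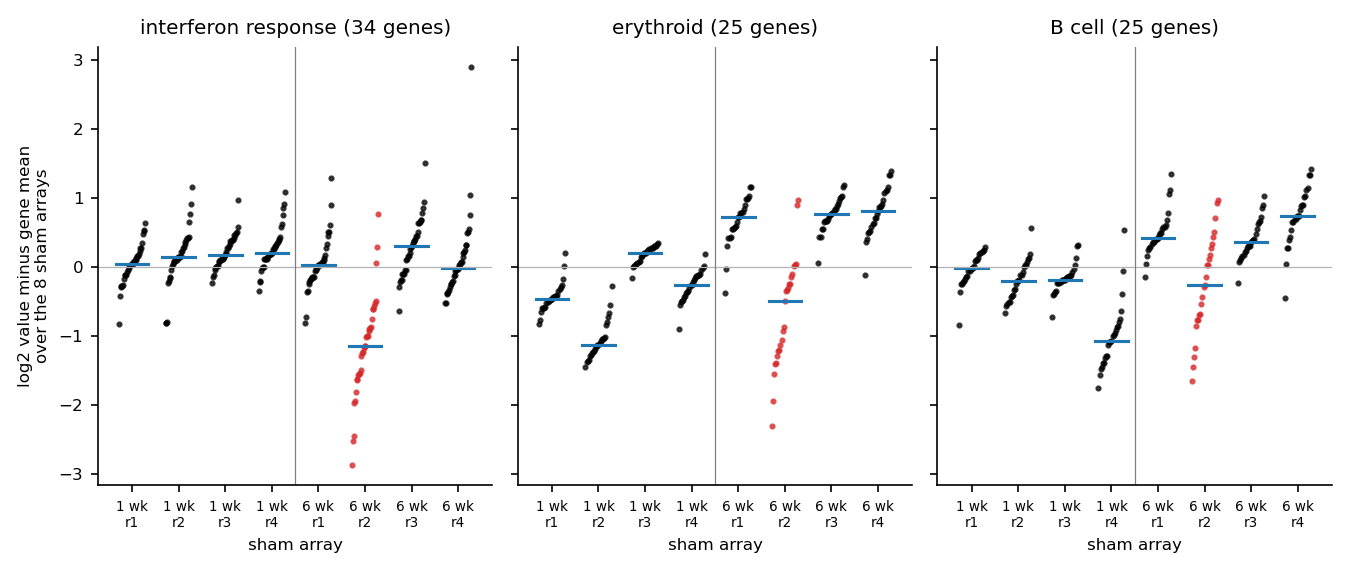
Log2 deviation from the gene's mean over the 8 sham arrays (vertical axis) for each member of the interferon, erythroid and B cell lists, 1 point per gene, sorted within each array (horizontal axis, replicates 1 to 4 at 1 week, then at 6 weeks). Blue bars are list medians and red points the dimmest array: its interferon median is -1.15, the other 3 arrays at 6 weeks have erythroid medians of 0.72 to 0.81, and replicate 4 at 1 week has a B cell median of -1.07.

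Genes of dividing cells differed by small amounts, mostly in 1 direction. Of 30 cell cycle genes 26 were higher, with a median of 0.17, and without the dimmest array all 30 were higher, with a median of 0.41. Cdc6, which loads the replicative helicase, read 2.26, 2.02, 2.25 and 2.05 at 1 week and 2.43, 3.02, 2.81 and 2.61 at 6 weeks, 0.57 ± 0.18 higher with no overlap. Birc5 (survivin, of the chromosomal passenger complex) was 0.52 ± 0.19 higher, also with no overlap. Of 12 clustered histone genes 9 were higher, with a median of 0.36. H1f2 was 1.11 ± 0.27 higher on its main probe and 0.07 on its other probe, and H4c3 was 0.67 ± 0.24 higher.

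Cartilage genes were higher at 6 weeks, with the slides far apart. Of 27 measured, 21 were higher, with a median of 1.05, 12 at an unadjusted p under 0.05 and 6 without overlap (all genes: 4.44% and 2.18%). Of the 6 lower members Chst11, a sulfotransferase of chondroitin, was without overlap too (-0.23 ± 0.18). The median was 1.33 within the first slide and 0.13 within the second. The list's median deviation was -0.81 and -1.06 in the 1-week arrays of the first slide, 0.08 and 0.10 in those of the second, and at 6 weeks 1.47 in the dimmest array against 0.20 to 0.40 in the other 3. Without the dimmest array 17 of 27 were higher, with a median of 0.97. How much cartilage each section carried is not given in the labels, and its part in these values was not tested.

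Cytl1, a secreted protein of chondrocytes, read -5.91, -3.19, -1.65 and -2.40 at 1 week and 0.14, 0.54, 0.55 and 0.16 at 6 weeks. The 6-week values were close together and all above, and the difference was 3.63 ± 1.16 (limma adjusted p = 0.414). At 1 week 3 of 4 arrays had the probe above background, so the size of this difference rests in part on a value at background. Chad (chondroadherin, a matrix protein that binds cells) was 2.06 ± 0.51 higher, Cnmd (chondromodulin, an inhibitor of vessel growth) 2.64 ± 0.73 and Snorc (a membrane proteoglycan) 2.60 ± 0.82, each without overlap. Within the first slide Cnmd and Snorc were 4.35 and 4.44 higher, and within the second 0.92 and 0.76. Comp, the oligomeric matrix protein, was alike in both slides, 0.86 and 1.25, and 1.05 ± 0.30 higher in all.

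The main structural genes of cartilage were not separated. Acan (aggrecan) read -3.45, -2.10, 0.39 and -0.41 at 1 week and 0.19, 1.88, -0.15 and -0.06 at 6 weeks, so that the second slide showed no difference above its spread (-0.10) and the first 3.81. Col2a1, the chain of type II collagen, was 0.33 ± 0.58 higher, and -0.19 without the dimmest array. Prg4, the lubricin of the joint surface, was 1.58 ± 0.88 higher, with its lowest 1-week value at -4.99 and the next at -2.49.

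Among 12 growth plate genes 6 were higher and 6 lower. Col10a1, the collagen of hypertrophic chondrocytes, read -3.71, -4.54, -3.41 and -1.31 at 1 week and -0.91, 3.09, -0.73 and -0.15 at 6 weeks. The groups did not overlap, and the difference was 3.57 ± 1.07, or 2.46 without the dimmest array, which held the highest value. Hhip, a decoy receptor of hedgehog proteins, was 1.22 ± 0.43 higher (0.67 without it). Runx3, a transcription factor of chondrocyte maturation, differed by -0.54 ± 0.20 on its main probe and by -0.09 and 0.21 on its others.

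**Figure D4:**
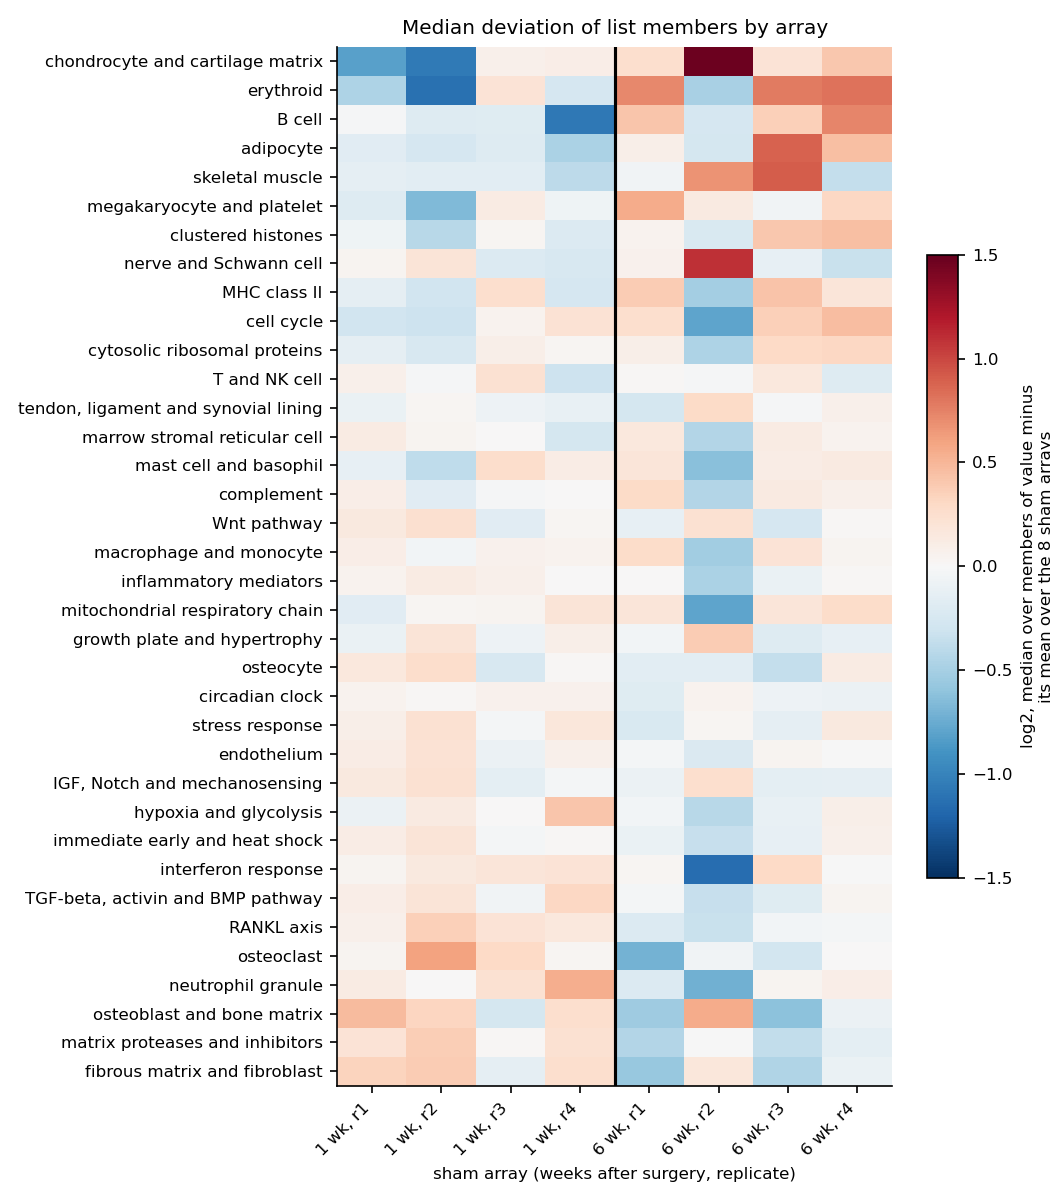
Median log2 deviation of each list's members from their mean over the 8 sham arrays (colour scale), with lists as rows and arrays as columns. Replicate 2 at 6 weeks differs from the other arrays of its group in the chondrocyte (1.47), interferon (-1.15), cell cycle (-0.79), mitochondrial (-0.79) and erythroid (-0.48) lists.

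Fat cell genes were higher at 6 weeks after sham, chiefly on the second slide. Of 23 measured, 18 were higher, with a median of 0.49, 7 at an unadjusted p under 0.05 and 4 without overlap (all genes: 4.44% and 2.18%). The median was -0.01 within the first slide, 1.05 within the second and 0.88 without the dimmest array. Cfd (adipsin, made in fat cells and a protease of complement) read 1.82, 1.18, 2.92 and 0.34 at 1 week and 4.04, 2.84, 6.41 and 5.46 at 6 weeks. One 1-week value met the dimmest array, and the difference was 3.12 ± 0.73 (8.72-fold higher; other probe 3.19; limma adjusted p = 0.319).

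Lipid droplet genes followed: Plin4 was 1.89 ± 0.53 higher and Cidec, which fuses droplets, 2.31 ± 0.75, both without overlap. Plin1, the coat protein of large droplets, was 1.40 ± 0.52 higher with overlap. Adig (adipogenin) was 1.84 ± 0.60 higher and Slc2a4, the insulin-responsive glucose transporter of fat and muscle, 1.36 ± 0.31, both without overlap. Within the slides Plin4 was 1.00 and 2.78 higher and Slc2a4 1.43 and 1.28. The adipokine gene Adipoq was 0.35 ± 0.48 higher and took opposite signs within the slides, -0.66 and 1.36.

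Genes of other tissues near the bone were read beside these. Of 20 skeletal muscle genes 18 were higher, with a median of 0.47 (0.24 without the dimmest array) and 4 at an unadjusted p under 0.05 (all genes: 4.44%). The muscle list's median deviation ran from -0.40 to -0.13 at 1 week and was -0.06, 0.67, 0.91 and -0.36 at 6 weeks. Mylpf and Mybpc2, proteins of fast muscle fibres, were each 1.07 higher (± 0.30 and ± 0.35) with overlap. Of 16 nerve and Schwann cell genes 11 were higher, with a median of 0.19, and the dimmest array stood apart at 1.09 against -0.34 to 0.06 in the others at 6 weeks. Without it 7 were higher and 9 lower, with a median of -0.06. Sox10, a transcription factor of Schwann cells, was 0.83 ± 0.17 higher, and Ncmap, a myelin protein, 1.54 ± 0.53 (0.97 without that array). The part of muscle or nerve in the other lists was not tested.

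Signalling genes differed by small amounts. Of 33 TGF-beta, activin and BMP genes 23 were lower, with a median of -0.34 and 5 at an unadjusted p under 0.05 (all genes: 4.05%). Without the dimmest array 2 were lower at that level (all genes: 4.85%). Smad6, an inhibitor of BMP signalling, differed by -0.71 ± 0.18 and Smad7, which restrains TGF-beta receptors, by -0.56 ± 0.24, both with overlap. The other Smad7 probe gave only -0.04. The ligand gene Tgfb1 differed by -0.43 ± 0.19 and Tgfbi, which TGF-beta induces, by -0.71 ± 0.31 (-0.34 without the dimmest array). Wnt pathway genes divided into 14 higher and 14 lower, but without the dimmest array 8 were higher and 20 lower, with a median of -0.22. The secreted antagonist gene Wif1 differed by -0.78 ± 0.29, the intracellular inhibitor gene Nkd1 by -0.64 ± 0.26 and the ligand gene Wnt10a by 0.77 ± 0.28. Of 26 IGF, Notch and mechanosensing genes 16 were lower, and Igfbp2, which binds insulin-like growth factors, differed by -0.79 ± 0.26 without overlap.

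Genes of acute stress and metabolism were lower by small amounts. Of 26 immediate early and heat shock genes 18 were lower, with a median of -0.24, and 4 were lower at an unadjusted p under 0.05 (all genes: 4.05%). Nr4a2, an orphan nuclear receptor induced by many stimuli, read -0.74, -0.33, -1.37 and -0.05 at 1 week and -1.99, -1.56, -1.98 and -1.63 at 6 weeks, a difference of -1.17 ± 0.38 with no overlap. Zfp36, which destabilizes cytokine mRNA, differed by -0.42 ± 0.16 without overlap, and the transcription factor gene Klf4 by -0.62 ± 0.23 with overlap. Glucocorticoid-induced Tsc22d3 differed by -0.52 ± 0.16, Chac1 of the integrated stress response by -0.68 ± 0.24, and the clock gene Per1 by -0.41 ± 0.16 (0.24 on its other probe). Of 21 hypoxia and glycolysis genes 16 were lower, with a median of -0.22, and Hk2, a hexokinase, differed by -0.71 ± 0.20 without overlap. The glucose transporter gene Slc2a1 differed by -0.68 ± 0.27 (-0.46 without the dimmest array).

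Among the highest ranked single genes were the copies of antitrypsin, the serum inhibitor of neutrophil elastase. Serpina1e read -0.26, -0.16, -1.08 and -0.93 at 1 week and 1.27, 1.73, 0.16 and 0.19 at 6 weeks. All 6-week values lay above, and in both groups the first slide read higher. The gene was 1.45 ± 0.23 higher in all (2.72-fold; limma adjusted p = 0.189), while a second probe of the gene gave 3.98. The other 4 copies, taken up after their values were seen, were 3.81 ± 0.80 (Serpina1a), 1.60 ± 0.36 (Serpina1b), 3.69 ± 0.79 (Serpina1c) and 3.63 ± 0.82 (Serpina1d) higher, all without overlap. Serpina1d was above background on 2 of 4 arrays at 1 week, so its difference rests in part on values at background. At 1 week Serpina1a read -3.80, -2.98, 0.37 and -0.81, and at 6 weeks 2.05, 2.00, 1.97 and 2.02, so that the spread lay at 1 week. The 60-base probes of Serpina1a and Serpina1c share a run of 47 bases and those of Serpina1b and Serpina1e 16, so signal may be shared among the copies and their separate values are uncertain. After DMM the copies were 1.19 (Serpina1e) to 3.35 (Serpina1a) higher at 6 weeks.

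Cyp2e1, a cytochrome P450 known for oxidizing ethanol, read -1.94, -2.03, -2.50 and -2.57 at 1 week and -1.54, -0.73, -0.65 and -1.01 at 6 weeks, 1.28 ± 0.22 higher without overlap. When replicate 1 of the 6-week group was left out it was the 1 gene with a limma adjusted p under 0.05 (1.52 ± 0.19, adjusted p = 0.0434). Cyp2f2, a P450 known from airway cells, read -2.94, -4.02, -1.78 and -4.09 at 1 week and -0.90, -1.41, 1.61 and 0.16 at 6 weeks. It was 3.07 ± 0.55 higher without overlap, within the slides 2.32 and 3.82.

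The remaining genes of the first 12 on the higher side ran from 0.78 to 1.61, with limma adjusted p-values of 0.189 to 0.248. They were Mst1 (macrophage-stimulating protein, 1.07 ± 0.22), Artn (artemin, a neurotrophic ligand, 1.09 ± 0.23), Cacna1g (a T-type calcium channel, 0.78 ± 0.16), Olfr1495 (an olfactory receptor, 1.61 ± 0.30), Spata31d1b, Gm30211, Gm33301, BC021767 and D14Ertd670e. On the lower side the first 12 ran from -1.52 to -0.65, and beside Mmp9, Kdm6b, Pla2g7, Cd101 and Cd300ld they held Samd12 (-1.52 ± 0.31), N4bp1 (a regulator of cytokine RNA, -0.65 ± 0.14), Kcnq5 (a potassium channel, -1.19 ± 0.26), Ugt1a6a (a glucuronosyltransferase, -0.77 ± 0.18), Gm6252, 8030431J09Rik and Gm17455. For Kcnq5 the other probes gave -0.18 and 0.34, so its probes disagree. The other Samd12 probe gave -0.65.

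The same interval after DMM showed whether these differences were seen where the ligand had been cut. The difference between the time effects was tested in the same fit: 0 of 28250 genes had a limma adjusted p under 0.05 (lowest adjusted p 1.00). At an unadjusted p under 0.05, 152 genes (0.538%) had a higher time effect after sham and 121 (0.428%) a lower one. The median standard error of this difference was 0.38, against 0.27 for the sham comparison itself. After DMM itself 1593 genes (5.64%) were higher and 1487 (5.26%) lower at an unadjusted p under 0.05. The list medians after DMM were 1.30 (erythroid), 0.69 (B cell), -0.57 (osteoclast), -0.68 (osteoblast and bone matrix) and -0.77 (fibrous matrix), beside 0.81, 0.74, -0.41, -0.44 and -0.47 after sham. The time effect after DMM rests on other mice than that after sham.

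Fat cell genes were mostly higher at 6 weeks after sham and mostly lower after DMM. After DMM 8 of 23 were higher, with a median of -0.12, against 18 of 23 and 0.49 after sham, and for 4 of 23 the difference had an unadjusted p under 0.05 (all genes: 0.966%). Slc2a4 was higher by like amounts in both, 1.36 after sham and 1.37 after DMM. Plin4 was 2.34 and Cidec 2.73 higher in its time effect after sham than after DMM, and Adig 2.01. For Plin4, Cidec and Adig, replicate 1 of the 1-week DMM group read highest of its group. It read 0.97 for Plin4 (others -0.79 to -0.44), 2.33 for Cidec (-1.17 to 0.33) and -0.27 for Adig (-2.28 to -2.21). The time effect after DMM thus leans on that array, and it was not computed without it. Cfd differed by 3.35, with -0.22 after DMM beside 3.12 after sham. Its DMM values were 5.14, 2.38, 3.75 and 3.79 at 1 week and 2.82, 2.04, 5.12 and 4.18 at 6 weeks, so the groups overlapped. At 1 week the values after DMM (2.38 to 5.14) lay mostly above those after sham (0.34 to 2.92). Cyp2f2 also differed by 3.35, with -0.28 after DMM, and Cyp2e1 by 0.98, with 0.30 after DMM. None of these passed the adjusted threshold (lowest adjusted p 1.00, limma).

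Cartilage and neutrophil genes were set side by side as well. After DMM 17 of 27 cartilage genes were higher, with a median of 0.53, beside 21 of 27 and 1.05 after sham. Cytl1 was 2.18, Cnmd 1.94, Snorc 1.54 and Chad 1.31 higher after DMM, beside 3.63, 2.64, 2.60 and 2.06. Col10a1 was 0.07 higher after DMM and 3.57 after sham, and Prg4 differed by -1.53 after DMM and by 1.58 after sham. The neutrophil list had a median of 0.04 after DMM, with 14 of 25 higher, and -0.42 after sham, with 2 of 25 higher. The difference reached an unadjusted p under 0.05 for 0 of the 25 (all genes: 0.966%). With so few genes and so small a share, this count does not tell the list from all genes. Cxcr2 differed by -0.30 after DMM and by -1.03 after sham, and C5ar1 by -0.30 and -0.99.

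The other genes ranked first for a difference were mostly dim: Gm16299 (2.17), Tmem213 (1.72, above background on 1 of 4 arrays at 1 week and 2 of 4 at 6 weeks) and Gm4925 (1.04) on the higher side. On the lower side they were AU019990 (-1.96), Cox6a2 (a subunit of muscle cytochrome oxidase, -1.05), 5033417F24Rik (-0.97), Gm19696 (-0.91), Mlana (a melanocyte antigen, -0.89) and Cfap100 (-0.86). For Mlana and Cox6a2 the sham difference itself was small, 0.08 ± 0.20 and -0.25 ± 0.23, and the DMM difference was 0.98 and 0.80. The other Cfap100 probe gave 0.61 after sham where the main one gave -0.73.

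**Figure D5:**
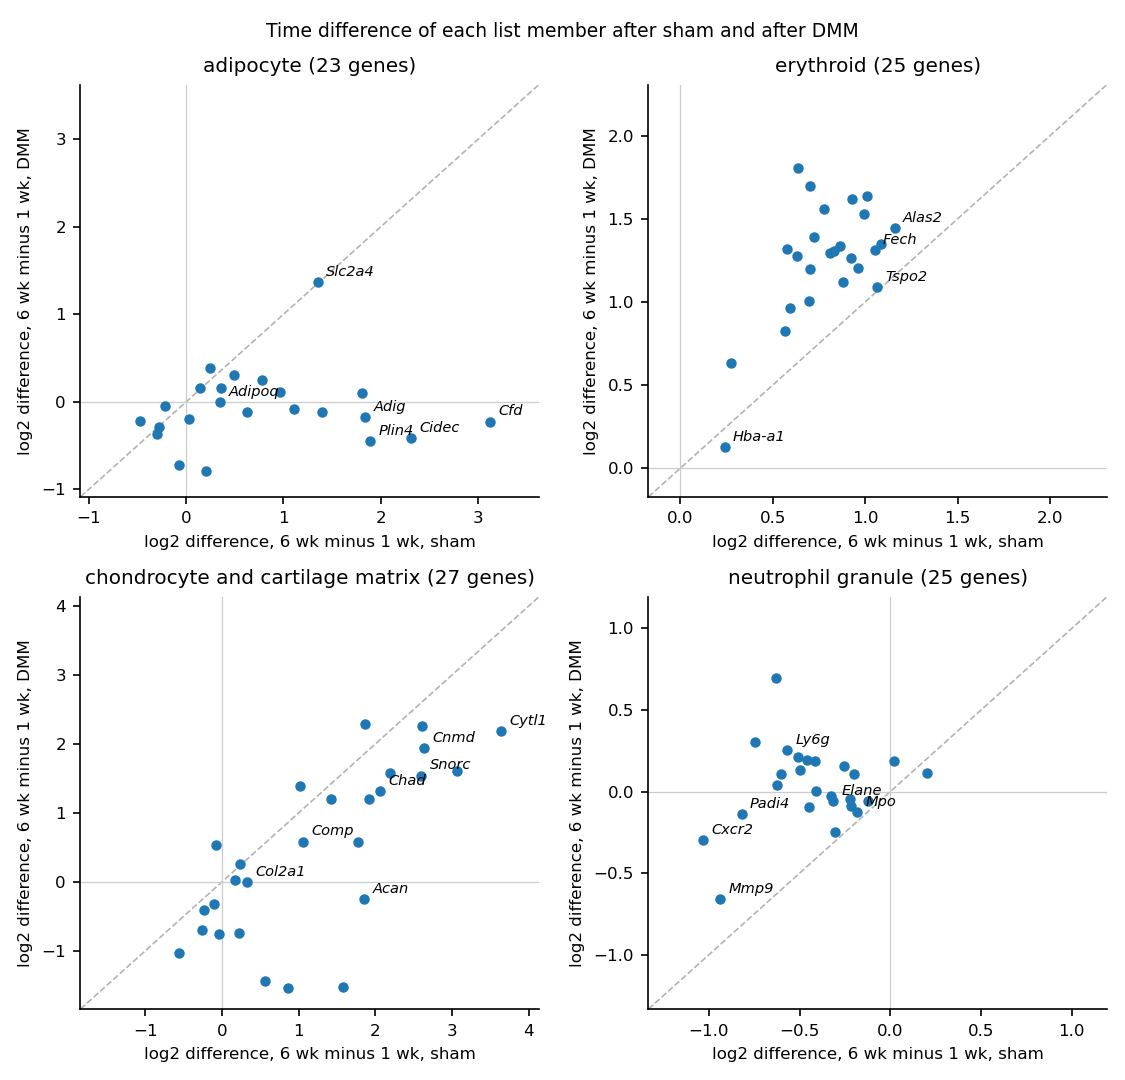
Log2 difference between 6 weeks and 1 week after DMM (vertical axes) against that after sham (horizontal axes) for members of the adipocyte, erythroid, chondrocyte and neutrophil lists, 1 point per gene, with the line of equality dashed. Erythroid genes lie above 0 on both axes (medians 0.81 and 1.30). The adipocyte list has medians of 0.49 after sham and -0.12 after DMM. Of its labelled genes, Cfd, Plin4, Cidec and Adig lie to the right and below 0 on the vertical axis. Slc2a4 lies near the line of equality (1.36 after sham and 1.37 after DMM).

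Weighting the arrays by their scatter changed the count more than any other setting. With limma's array weights, which ran from 0.07 for the dimmest array to 3.51 for replicate 3 of the same group, 2509 genes (8.88%) had an adjusted p under 0.05, 1405 (4.97%) higher and 1104 (3.91%) lower. Of these, 1246 had an unadjusted p under 0.05 with equal weights, and in 687 the sham groups did not overlap. By list, the weighted fit called 23 of 25 erythroid genes higher, 10 of 23 adipocyte and 9 of 25 B cell genes higher, 8 of 16 osteoclast genes lower and 1 higher, and 4 of 25 osteoblast genes lower. Among single genes, Mmp9 had an adjusted p of 0.0049 in that fit, Kdm6b 0.0049, Cxcr2 0.0091, Oas2 0.017 and Tspo2 0.016. When the dimmest array was left out and weights were estimated again (0.22 to 2.78), 2706 genes were called, of which 2336 were shared, 93.1% of the first list and 86.3% of the second. Weights were estimated from the same arrays they were applied to, and with equal weights no gene passed.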

How the data were processed

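RNA of laser-cut subchondral bone (100 ng, Cy3) was read on 16 Agilent 1-colour arrays, 4 per group, 8 on each of 2 slides. The deposited scanner files hold spot intensity that Feature Extraction 10.7.3.1 had background-subtracted, per the file headers. The authors' deposited value table holds log2 values (medians 7.24 to 7.34), made with limma 3.20.9 per the submitters' processing notes. Its normalization is not given in the sources used here, and it correlated at 0.989 to 0.994 with the scanner values.

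Here log2 processed intensity was reduced by each array's 75th percentile. Control spots and 342 probes with outlier spots were left out, and spots of a probe were averaged. Probes well above background on at least 4 of 16 arrays were kept (43268 of 56605). Of several probes of a gene the one brightest on average was used, giving 28250 genes, 19754 of them with a current symbol. limma 3.58.1 (R 4.3.3) fitted 4 group means and the slide on all 16 arrays, with 11 residual degrees of freedom, and Benjamini-Hochberg adjustment ran over all genes tested. A group list is described by counts and medians, with no test of the list. Some genes stand in 2 lists.

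On simulated data for the sham comparison (28250 genes, 50 changed at each size) 34% of changes of 1 log2 unit, 82% of 2 and 98% of 3 were recovered, with 10 false calls among 167. The simulated noise was independent and had the same spread on every array, with no array set apart. The real arrays were not alike in scatter (weights 0.07 to 3.51), so these shares may not hold for them. Differences near 1 were often missed at this number of arrays even with such noise. No spot was saturated. P-values rest on the spread between mice within all 4 groups, DMM included, which limma draws toward that of all genes. With the 8 sham arrays alone the lowest limma adjusted p was 0.529.

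Named genes are up to 12 per direction by smallest unadjusted p among non-overlapping genes with a current symbol, up to 6 per direction for the difference from DMM, up to 4 members per list, and defining genes of the lists. The members and lists were chosen with earlier results of these data known. Promoters came from RefSeq (GRCm38.p6), and probe positions are the array file's (mm9). Alternatives were another background correction, quantile normalization, other filters, the deposited table, the mean of a gene's probes, array weights, other uses of the slide, the sham arrays alone and leaving out each sham array. Some genes that this rule names are not reported here.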

Additional observations from a re-analysis of the deposited data

Results flagged for a closer look

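Each group of 4 sham arrays was searched for a single value far from the other 3 (gap over range above Dixon's critical value), for 131 named genes and the medians of 36 lists. Of 334 groups, 19 held such a value, and chance gives about 1 in 20. Replicate 2 at 6 weeks, the dimmest array, held 13 of the 19.

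In that array the gene values were Gm30211 at -4.47 (others -3.90 to -3.88), Cox6a2 at 0.22 (1.29 to 1.41), Snorc at 3.19 (1.03 to 1.39), Oasl2 at -0.58 (0.24 to 0.38), Oas1a at 0.81 (2.10 to 2.28), Tgfbi at 2.82 (4.32 to 4.38) and Acan at 1.88 (-0.15 to 0.19). Its list medians, as deviations from each gene's mean over the sham arrays, were 1.47 for chondrocyte (others 0.20 to 0.40), -0.63 for mast cell (0.11 to 0.18), -0.48 for erythroid (0.72 to 0.81), -0.79 for cell cycle (0.25 to 0.46), -0.79 for mitochondrial (0.18 to 0.28) and 0.26 for IGF, Notch and mechanosensing genes (-0.14 to -0.08).

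At 1 week, replicate 2 held Mst1 at -2.26 (others -1.45 to -1.33) and Mlana at -3.95 (-4.16 to -4.13), replicate 3 held Comp at 2.96 (1.88 to 1.97), and replicate 4 held Plaur at 3.38 (2.73 to 2.78). The list medians of replicate 4 were -1.07 for B cell (others -0.19 to -0.02) and -0.40 for muscle genes (-0.16 to -0.13). What these values reflect was not tested.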

How the results depend on the processing

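The count of genes with a limma adjusted p under 0.05 was 0 for the sham comparison under each alternative run, apart from array weights (2509), array weights without the dimmest array (2706, added after seeing the data) and leaving out each sham array in turn (0 to 1). For the difference from DMM it was 0 under all alternatives run, array weights included. At an unadjusted p under 0.05 the equal-weight counts were 2397 and 273. No paired analysis was possible because the replicate numbers follow record order and link no mice across groups.

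Of 2870 values of the 131 named genes under the alternatives, 2677 kept their direction and, where a test was run, their side of the threshold. A further 175 passed it and 18 changed sign. Values within a slide had no test and were compared by sign alone. The fit without the dimmest array entered these counts both by itself and in leaving out each sham array. Hba-a1 stood at -0.038 without the dimmest array (leaving out each array in turn, -0.038 to 0.42), -0.065 after quantile normalization, -0.055 with weights and -0.088 with weights without that array. Col2a1 stood at -0.19, -0.18 and -0.14 without it, with weights and with both, at -0.19 within the second slide, and at -0.19 to 0.63 leaving out each array. Dmp1 ranged from -0.33 (without replicate 3 at 1 week) to 0.039 (without replicate 3 at 6 weeks). Within the first slide Mlana stood at -0.039, Sost at -0.41 and Adipoq at -0.66, and within the second Cox6a2 stood at 0.039 and Acan at -0.10. Cox6a2 stood at 0.0082 with weights without the dimmest array. Of 36 list medians, 20 kept their sign throughout and 16 did not, among them interferon (0.02 with weights) and adipocyte (-0.01 within the first slide). The share of all genes above 0 was 55.2%, 64.9% after another background correction (normexp) and 51.4% after quantile normalization. Signal over background limits the dim genes named above.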

Other observations

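The remaining lists held few genes apart from the background. Of 25 endothelial genes 16 were lower at 6 weeks after sham, with a median of -0.17, while Esm1, a secreted protein of vessel tip cells, was 0.70 ± 0.27 higher. Of 11 tendon, ligament and synovial lining genes 7 were higher, with a median of 0.08, and none had an unadjusted p under 0.05 (all genes: 8.48%). Of 13 genes of marrow stromal reticular cells 8 were higher, with a median of 0.06. Of 11 mast cell and basophil genes 7 were higher, with a median of 0.04. Cd2, an adhesion receptor of T and NK cells, was 0.80 ± 0.32 higher with overlapping groups.

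Genes of basic cell machinery differed by little. Of 40 genes of cytosolic ribosomal proteins 38 were higher, with a median of 0.13, -0.04 within the first slide and 0.28 within the second. Of 34 genes of the mitochondrial respiratory chain 24 were lower, with a median of -0.07, and without the dimmest array 32 were higher, with a median of 0.17. Of 18 circadian clock genes 11 were lower, with a median of -0.10, and of 19 stress response genes 12 were lower, with a median of -0.15.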
